A study of Mus musculus with 12 samples.

Results

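Livers given the oncogene pair MET and beta-catenin (MET/CAT) were compared with livers given GFP by RNA sequencing of whole mouse liver, averaged over 2 genotypes. All 12 of the 12 libraries of the series entered, 6 MET/CAT against 6 GFP, and genotype was a covariate. Each side held 3 libraries from wild type (WT) mice and 3 from mice with Sirt2 deleted in hepatocytes (KO), which gives 4 groups, GFP and MET/CAT in WT mice and the same pair in KO mice. Per the labels' protocols, transposon plasmids carrying c-MET and an N-terminally truncated beta-catenin (DN90), each behind the EF1a promoter, went together with a plasmid for the Sleeping Beauty transposase into the tail vein under hydrodynamic pressure, a method that delivers DNA mainly to hepatocytes and only to some of them. Injection was at an age of 6 to 8 weeks, and livers were collected 8 weeks afterwards. The mice are described as matched for age and sex, on a standard diet. The sources used here do not give strain, sex, the Cre driver of the deletion, the time of day of collection or the species of the plasmid cDNAs. Xist, the transcript of the inactive X chromosome, lay between 878 and 2300 normalized reads in the 12 libraries, and the Y-linked gene Ddx3y between 0 and 9.07. Groups follow the sample titles, because the treatment field of the labels tracks genotype and disagrees with those titles for KO GFP and WT MET/CAT. The labels do not say outright that each library is another mouse, and the p-values therefore reflect only how these libraries spread, which may be technical.

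Values are normalized reads, gene counts that the authors divided by 1 factor per library, and 18208879 to 24352961 reads per library were recovered from them. Of 47263 genes in the table, 13871 reached 10 in 3 or more libraries and were tested. A gene can pass through the libraries of 1 plasmid alone, so list counts and medians lean towards genes that differ where members are low. A difference is given as MET/CAT minus GFP in log2(normalized reads + 1) with its standard error (SE), and 1 unit is a doubling for all but the lowest genes. Genes count as called where limma's p, adjusted by Benjamini-Hochberg over all genes tested, was under 0.05. Values of a group are given as the lowest, the median and the highest of its 6 libraries. KO GFP replicate 3 stood apart on the first principal component, at −88.95 on an axis with 21.96% of the variance. It also had the lowest share of reads from major urinary protein genes, at 0.146% against 0.942% to 1.40% in the other GFP libraries. Relative to the mean of the 12 libraries, its values had the highest Spearman correlation with transcript length, 0.47. WT GFP replicate 2 had the lowest, −0.36. The hepatocyte genes Alb (1491250 to 1952240 with GFP and 1324850 to 2640010 with MET/CAT) and Apoa1 (203759 to 456366 and 301928 to 488124) were abundant in every library, as the label liver requires.

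MET is the receptor tyrosine kinase for hepatocyte growth factor, and truncated beta-catenin escapes degradation and keeps Wnt target genes on. Together they are a standard way to raise hepatocellular tumours in mice. In the normal liver, Wnt signalling sets the gene programme of hepatocytes around the central vein, whereas cytokines such as interleukin-6 and interleukin-1 switch hepatocytes to the acute phase response, the secretion of plasma proteins in inflammation.

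The plasmids divided 448 of the 13871 genes (3.23%), 287 higher (2.07%) and 161 lower (1.16%) with MET/CAT. Of the 448, 300 differed by more than 1 log2 unit and 114 by more than 2, and 428 were protein coding. Genes that rose included members of the acute phase, interleukin-1 and NF-kB, neutrophil, metallothionein and pericentral lists, and genes that fell included major urinary proteins, clock genes and some genes of sterol transport, glycogen and DNA replication. Of the 448, 116 stood in at least 1 of the 51 lists. The lists share members, with 103 of their 1197 genes in 2 or more, so counts of different lists are not independent. Over all genes tested the median difference was 0.02 and 51.9% had a higher value with MET/CAT, which is the background for every list below. With equal library totals the median moved to −0.14 and the split of calls to 195 higher and 354 lower, so small differences depend on the scaling. In 345 genes (2.49%) the 6 MET/CAT and 6 GFP libraries did not overlap, and 254 of these were called. In 202 of the 448 genes the call held in each of the 12 fits that left out 1 library. The number of calls fell to 267 when WT GFP replicate 1 was left out, to 240 and 262 when KO GFP replicate 1 or 2 was, to 291 for WT MET/CAT replicate 3 and to 262 for KO MET/CAT replicate 1.

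**Figure D1:**
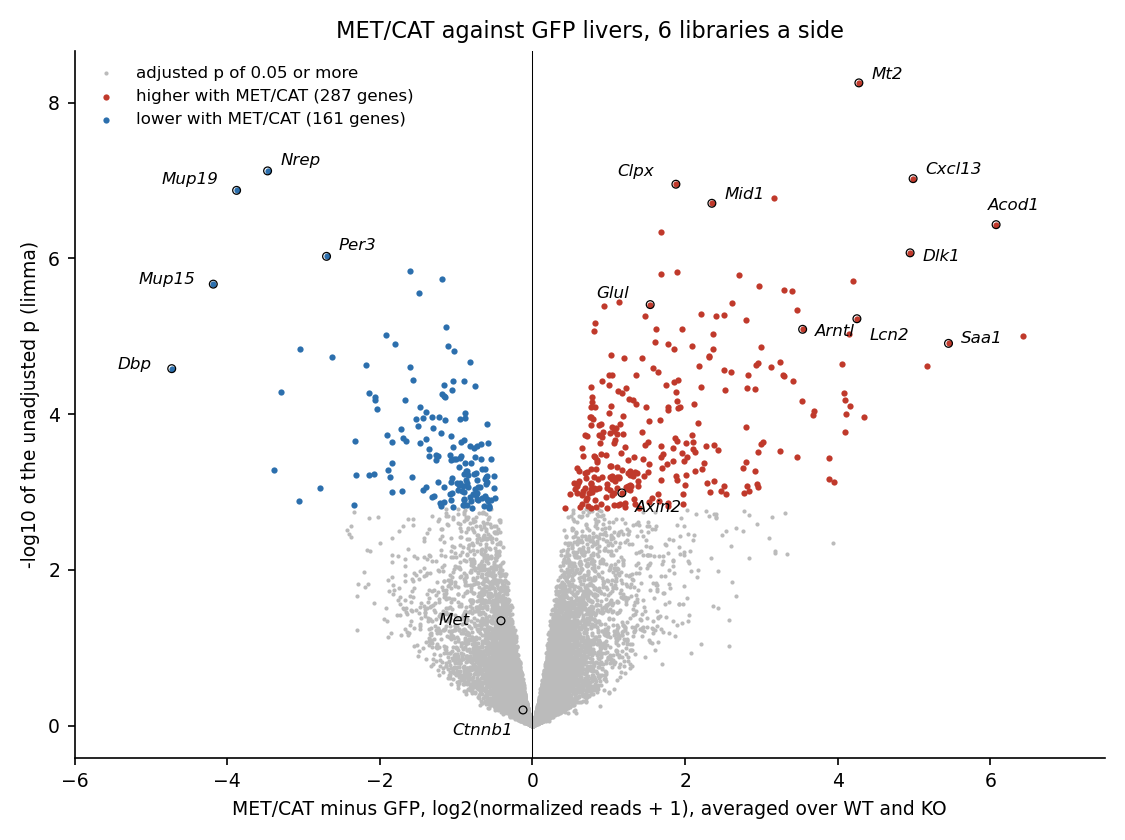
Each point is 1 of the 13871 genes tested, with the MET/CAT minus GFP difference in log2(normalized reads + 1) on the x axis and −log10 of the unadjusted limma p on the y axis. The 287 genes called higher (red) reach beyond 6 log2 units at Acod1 and Saa2, the 161 called lower (blue) reach −4.73 at Dbp, and Met and Ctnnb1 lie among the grey genes that were not called.

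The delivered genes themselves did not stand out in the mouse gene values. Met (chromosome 6, 17463800 to 17573980, GRCm38) had 745, 897 and 1673 normalized reads with GFP and 583, 741 and 959.6 with MET/CAT, a difference of −0.41 (SE 0.19, adjusted p = 0.288). Ctnnb1 (chromosome 9, 120929216 to 120960507), the gene of beta-catenin, differed by −0.12 (SE 0.25, adjusted p = 0.864). Both genes overlapped between the plasmids over the 12 libraries. Within KO livers Met did not overlap, with 959 to 1673 normalized reads with GFP and 583 to 814 with MET/CAT. The Met difference was −0.76 in KO and −0.063 in WT livers, and the limma interaction was not called (adjusted p = 0.325). Whether plasmid reads can fall on the mouse genes was not tested. Sirt2 (chromosome 7, 28766735 to 28788661), the deleted deacetylase, was lower in every KO library than in every WT library, and its plasmid difference was 0.31 (SE 0.16, adjusted p = 0.355).

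Several targets of beta-catenin and genes of pericentral hepatocytes rose with MET/CAT. Glul (chromosome 1, 153899944 to 153909723), glutamine synthetase and the classical pericentral target of Wnt signalling, had 16514, 18594 and 22828 normalized reads with GFP and 36972, 61478 and 85906 with MET/CAT. Its groups did not overlap, and it rose by 1.54 (SE 0.21, adjusted p = 0.00217). Axin2 (chromosome 11, 108920349 to 108950783), a feedback inhibitor of Wnt signalling, had 32.9, 68.6 and 84.3 with GFP and 84.3, 159.9 and 202 with MET/CAT. KO MET/CAT replicates 1 and 3 lay close to the highest GFP library. Axin2 rose by 1.17 (SE 0.28, adjusted p = 0.0376), which 4 of the 12 fits with 1 library left out also called, but not the fit with equal library totals (adjusted p = 0.0917). Lgr5, the receptor for R-spondins, differed by 0.64 (SE 0.27, adjusted p = 0.251).

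Of 23 pericentral hepatocyte genes, 17 had higher values, 8 rose and none fell, with a median of 0.64. Beside Glul and Axin2, the transcription factor Tbx3 rose by 1.10 (SE 0.24), with 205 to 388 normalized reads with GFP and 393 to 1122 with MET/CAT, and was called in 6 of the 12 fits with 1 library left out. The remaining 5 were transporters and a receptor, among them the glutamate transporter Slc1a2 (1.11, SE 0.22, adjusted p = 0.0146), the dicarboxylate transporter Slc13a3 (1.18) and the vasopressin receptor Avpr1a (1.28). The other 2 were the amino acid transporters Slc1a4 (1.27) and Slc16a10 (0.64). Avpr1a, Slc1a4 and Slc16a10 were called in 4, 5 and 1 of those 12 fits. By contrast the pericentral drug-metabolizing enzymes Cyp2e1 (60258 to 104458 with GFP, 71302 to 129679 with MET/CAT) and Cyp1a2 (10565 to 12409.5 and 7133 to 20837) differed by −0.056 (adjusted p = 0.939) and 0.21 (adjusted p = 0.714). Both enzymes overlapped between the plasmids. Cyp2a5, the lowest member of the list, differed by −1.03 (SE 0.31, adjusted p = 0.0936) and was not called. It had 31050 to 88095.5 normalized reads with GFP and 15304 to 46690 with MET/CAT. Of 14 beta-catenin feedback targets 2 rose, Axin2 and Tbx3, with a median of 0.24 (0.0802 with equal library totals). Sp5 (1.23, adjusted p = 0.167) and Nkd1 (0.74, adjusted p = 0.239) did not pass, nor did Ccnd1 (−0.035) or Myc (−0.27). Of 22 periportal hepatocyte genes 1 was called, the progenitor and duct factor Sox9 (2.11, SE 0.44; 23.9 to 69.3 with GFP and 75.9 to 639 with MET/CAT), and the list median of 0.12 turned to −0.0407 with equal library totals and −0.0064 with quantile normalization, and was 0.070 without KO GFP replicate 2. In whole liver, more cells of a kind and more RNA per cell cannot be told apart.

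Fetal and tumour markers of the liver gave some of the clearest separations. Dlk1 (chromosome 12, 109452823 to 109463336), a Notch-like protein of fetal hepatoblasts, had 0, 1.34 and 2.27 normalized reads with GFP and 16.9, 86.3 and 143 with MET/CAT. In reads these were 7 over the 6 GFP libraries and 421 over the 6 MET/CAT libraries, a ratio of 70.2 (95% interval 33.8 to 176, counting error only). It rose by 4.95 (SE 0.60, adjusted p = 0.00118) with no overlap. Afp (chromosome 5, 90490737 to 90508907), alpha-fetoprotein, had 58.1 ± 18.01 normalized reads with GFP and 277 ± 233 with MET/CAT (SD, n = 6) and rose by 1.96 (SE 0.42, adjusted p = 0.0202). WT MET/CAT replicate 1 was the highest library for Afp. Of 18 oncofetal and liver tumour genes measured 5 rose and none fell, with a median of 0.68 (1.05 without KO MET/CAT replicate 2). Ly6d (2.83), a surface protein, Lcn2 and Mt1 were the other 3, and Lcn2 and Mt1 also count in the acute phase list. Igf2 (1.19, adjusted p = 0.121), Gpc3 (0.82, adjusted p = 0.206) and H19 (0.55, adjusted p = 0.784), which many liver tumours re-express, were not called. Their groups overlapped.

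Metallothioneins bind zinc and copper and are induced in liver by metals, glucocorticoids and interleukin-6. Mt2 (chromosome 8, 94172664 to 94173568) had the smallest p of all genes. Its values were 707, 2091 and 3255 normalized reads with GFP and 16427, 38965 and 63943 with MET/CAT, and the lowest MET/CAT library lay far above the highest GFP library. It rose by 4.28 (SE 0.35, adjusted p = 7.73e-05), by 4.35 in WT and 4.20 in KO livers. Mt1 (chromosome 8, 94179082 to 94180327), its neighbour, had 6767, 9191 and 13484 with GFP and 19459, 64324 and 98874 with MET/CAT and rose by 2.41 (SE 0.34, adjusted p = 0.00248). Of 15 metallothionein and zinc transport genes measured 4 rose and none fell, with a median of 0.32. The other 2 were the transporters Slc30a10 (1.65) and Slc39a14 (1.07), the zinc importer induced in the acute phase, the latter called in 3 of the 12 fits with 1 library left out. Slc30a1, the zinc exporter driven by the metal sensor MTF1, differed by −0.24 (adjusted p = 0.431), and Mtf1 itself by −0.06 (adjusted p = 0.919).

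The promoter of Mt2 is shown because that gene led the comparison. It is the stretch from 250 bases before the start to 1 base before it, chr8:94172368-94172617, plus strand, from RefSeq on GRCm38.p6. Capitals mark matches to the core of the metal response element, searched as TGCACNC and TGCGCNC on both strands, which do not overlap each other here.
Mt2: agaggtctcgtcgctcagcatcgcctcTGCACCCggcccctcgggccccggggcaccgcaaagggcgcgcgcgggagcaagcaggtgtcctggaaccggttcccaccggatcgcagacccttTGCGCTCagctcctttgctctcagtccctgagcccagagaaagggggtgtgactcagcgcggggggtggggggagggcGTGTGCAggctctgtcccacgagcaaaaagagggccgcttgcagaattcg
The stretch holds 3 such matches, and a further one (GTGCGCA) lies 4 to 10 bases after the start. That start is the one of RefSeq, and the gene position given above begins further on, at 94172664. The core is short, and 4210 of the 10521 promoters of tested genes (250 bases before to 50 after the start; 40.02%) and 28.2% of all promoters held at least 1. Among genes that rose the share was 35.8%, and among genes that fell 36.0%.

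**Figure D2:**
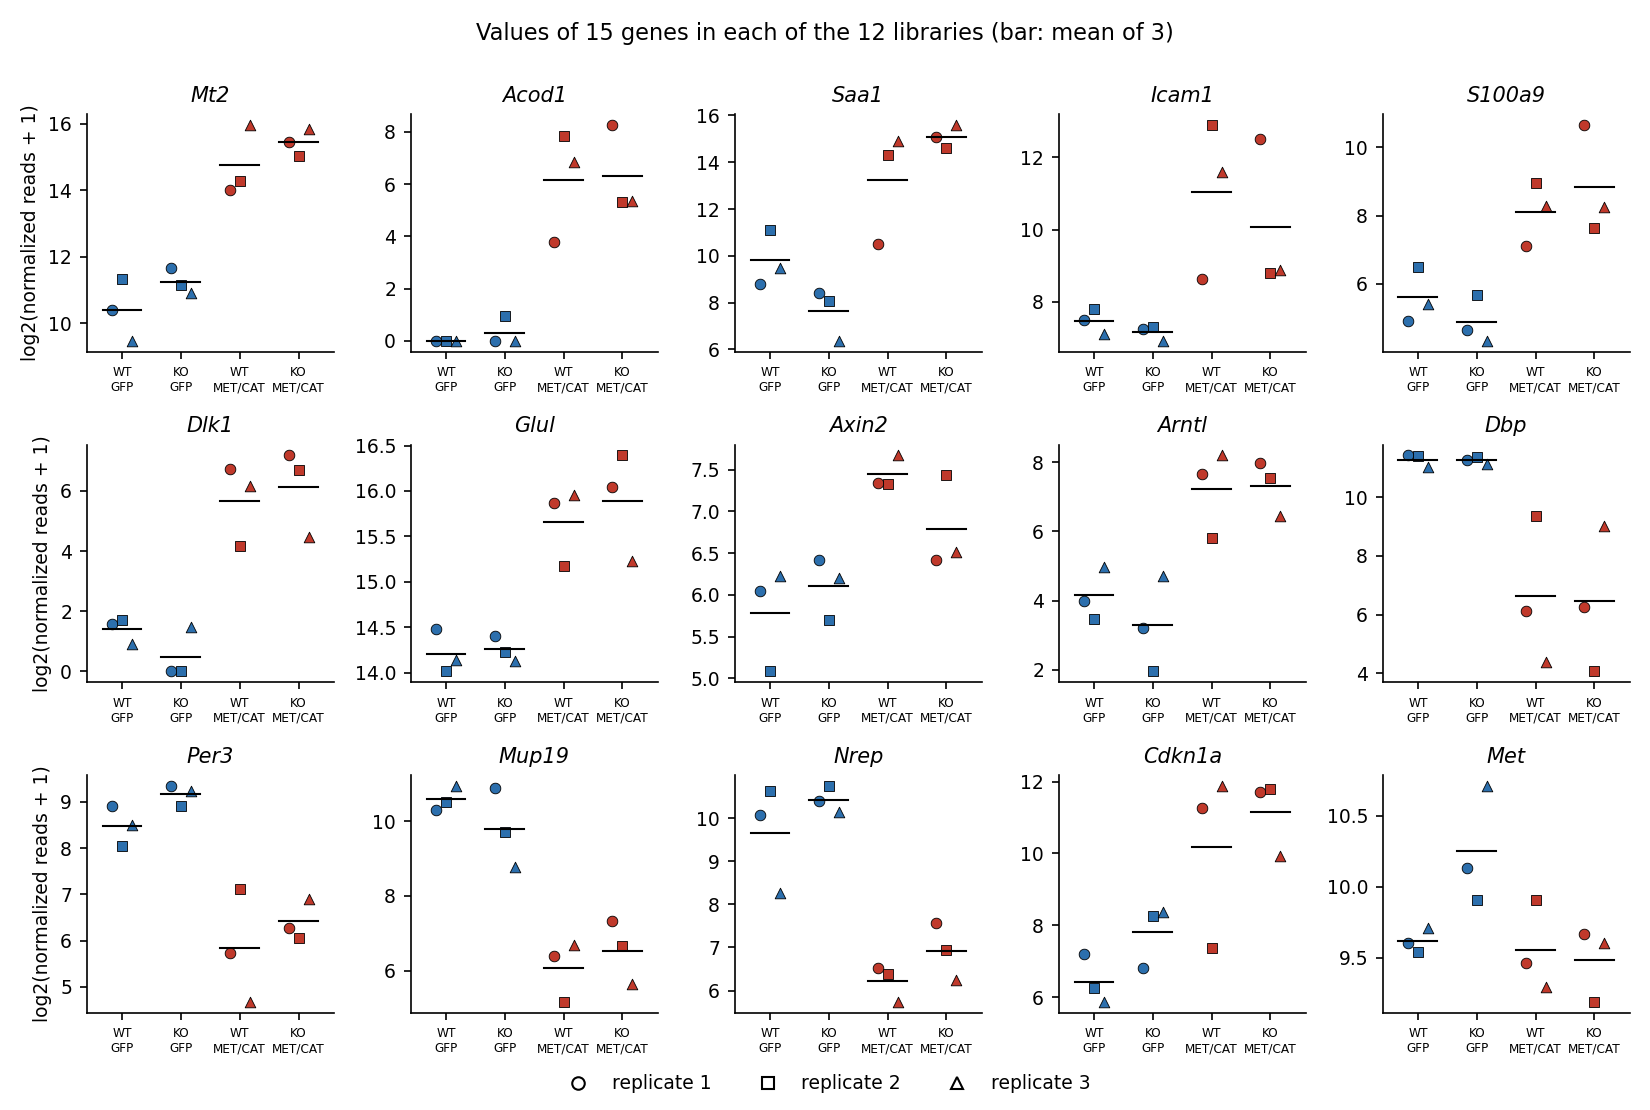
For 15 genes, log2(normalized reads + 1) is plotted for each library, GFP in blue and MET/CAT in red, with the replicate number as the marker shape and a bar at the mean of 3. Mt2, Acod1, Dlk1, Glul, Dbp, Per3, Mup19 and Nrep separate all 6 MET/CAT from all 6 GFP libraries. Saa1, Axin2 and Cdkn1a have 1 or more MET/CAT libraries within or next to the GFP range. Met overlaps between the plasmids over the 12 libraries and in WT livers, but not within KO livers.

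Acute phase genes were higher almost without exception. Of 37 measured, 36 had higher values and 17 rose, with a median of 1.04, and none fell. Saa1 (chromosome 7, 46740497 to 46742980), serum amyloid A, had 81.4, 395 and 2230.2 normalized reads with GFP and 1471, 27751 and 49398 with MET/CAT. WT MET/CAT replicate 1, the lowest of its group, lay below WT GFP replicate 2, the highest of its own, and the other 5 MET/CAT libraries lay above every GFP library. It rose by 5.45 (SE 0.83, adjusted p = 0.00371). Its near-identical neighbour Saa2 rose by 6.43 (SE 0.96), and reads of the pair may be shared. Lcn2 (chromosome 2, 32384633 to 32388252), an iron-scavenging protein of hepatocytes and neutrophils, had 91.9, 193 and 623 with GFP and 707, 5272 and 11643 with MET/CAT. It rose by 4.25 (SE 0.61, adjusted p = 0.00256) with no overlap.

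Abundant plasma proteins of the acute phase rose too. Haptoglobin, Hp, had 72909 ± 22498 normalized reads with GFP and 144241 ± 25499 with MET/CAT (SD, n = 6) and rose by 1.02 (SE 0.23), without overlap. Orm2 (2.01), Lrg1 (1.89) and the endotoxin carrier Lbp (1.37) also rose, as did the fibrinogen chains Fga (1.04) and Fgg (0.77). The call of Hp held in 6 of the 12 fits with 1 library left out. Those of Fga, Fgg and Lbp held in 3 or 4 and were lost with equal library totals (adjusted p of 0.0906, 0.0862 and 0.0568). On the receiving side, the interleukin-1 receptor Il1r1 (2.09, SE 0.32), the oncostatin M receptor Osmr (2.37, SE 0.37) and the transcription factor Stat3 (1.18, SE 0.21) rose. Socs3 (chromosome 11, 117966079 to 117970047), which STAT3 induces to end its own signal, had 30.3, 40.8 and 98.7 with GFP and 175, 449.8 and 2267 with MET/CAT, and rose by 3.46 (SE 0.48, adjusted p = 0.00235). Complement and coagulation genes, which hepatocytes also secrete, had none of 27 called, with a median of 0.12 that turned to −0.044 with equal library totals and −0.0688 with quantile normalization, and was 0.0445 without KO MET/CAT replicate 1.

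Genes of interleukin-1 and NF-kB signalling held some of the largest increases. Acod1 (chromosome 14, 103046977 to 103056573), the enzyme that makes itaconate in activated macrophages, had 0, 0 and 0.961 normalized reads with GFP and 12.96, 76.9 and 306 with MET/CAT. A single read was found in the GFP libraries and 661 in the MET/CAT libraries, a ratio of 772 with a 95% interval of 138 to 30533. It rose by 6.08 (SE 0.69, adjusted p = 0.00064). Of 23 interleukin-1 and NF-kB genes 8 rose, 22 had higher values and the median was 1.94, and none fell. Il1b, the cytokine, had 0, 10.3 and 19.1 with GFP and 43.4, 107 and 595 with MET/CAT (4.09, SE 0.74, adjusted p = 0.00796). Tnf rose by 4.11 (SE 0.77), from 7 to 248 reads in all. The subunits Relb (2.80) and Nfkb2 (2.22) rose, and so did Rela (1.19, SE 0.24), the adaptor Myd88 (1.69) and the co-regulator Bcl3 (2.31). Of these, Relb, Nfkb2 and Myd88 were called in 8, 5 and 9 of the 12 fits with 1 library left out. Tlr2, a receptor for bacterial lipoproteins, had 20.8, 33.4 and 43.3 with GFP and 129.5, 771 and 5037 with MET/CAT (4.16, SE 0.76, adjusted p = 0.00886).

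The MET/CAT libraries differed widely among themselves in these genes. The adhesion molecule Icam1 had 393, 7638 and 3095 normalized reads in WT MET/CAT replicates 1 to 3 and 5833, 440.4 and 469 in KO MET/CAT replicates 1 to 3, against 119 to 221 in the GFP libraries. It rose by 3.24 (SE 0.68, adjusted p = 0.0194) with no overlap. The inhibitor Tnfaip3 did not overlap either, with 21.5 to 58.6 against 79.5 to 4699.9, but was not called (2.76, SE 0.78, adjusted p = 0.0723), and was called without KO MET/CAT replicate 1, its highest library (1.89, adjusted p = 0.0285), and without KO MET/CAT replicate 2 (3.20, adjusted p = 0.0417). Among 19 chemokine genes 5 rose and 1 fell, with a median of 1.02. Cxcl13, which attracts B cells, rose by 4.99 (SE 0.50, adjusted p = 0.000371), from 16 to 510 reads, a ratio of 37.2 (95% interval 22.7 to 65.6). Cxcl1 (3.69), the main neutrophil attractant of mouse liver, Ccl2 (4.09), Ccl4 (4.35) and Ccl7 (3.89) were the other 4. Cxcl12 fell from 4890 ± 564 to 2925 ± 463 (SD, n = 6; −0.75, SE 0.13, adjusted p = 0.00662), with no overlap. Cxcl10, induced by interferon gamma, was not called (3.94, SE 1.17, adjusted p = 0.0867).

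Neutrophil markers moved with the inflammatory genes. Of 21 listed, 17 passed the filter, of which 7 rose and 16 had higher values, with a median of 2.60, and none fell. Some passed only through the MET/CAT libraries, such as Mmp8, Cxcr2 and Clec4d, which reached at most 2.88, 2.99 and 3.62 with GFP. The filter thus favours higher values among the low markers, and these counts and the median are no test of the list. S100a9 (chromosome 3, 90692632 to 90695721), a subunit of calprotectin, had 18.98, 35.2 and 88.4 normalized reads with GFP and 138, 306 and 1616 with MET/CAT (3.24, SE 0.52, adjusted p = 0.00482). Its partner S100a8 rose by 2.99 (SE 0.46), Retnlg by 3.29 (SE 0.55) and the formyl peptide receptor Fpr1 by 2.91 (SE 0.51). The collagenase Mmp8 and the chemokine receptor Cxcr2 each had 3 reads over the GFP libraries, and 145 and 150 over the MET/CAT libraries. Without Wfdc21 and G0s2, which liver cells also express, the summed level of the 19 remaining markers was 151 to 340 with GFP and 578 to 3912 with MET/CAT. Granule genes of immature neutrophils reached 13.2 (Mpo), 14.9 (Elane), 16.9 (Camp), 18.9 (Ltf) and 25.3 (Ngp) with MET/CAT, against 12.5, 9.04, 40.8, 7.93 and 19.9 with GFP, so that Camp was highest in a GFP library. Ly6g had no read in 5 GFP and 4 MET/CAT libraries. The part of neutrophils in the differences of Lcn2, Il1b and the other shared genes was not tested.

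Markers of other cells were mixed. Of 30 macrophage and Kupffer cell markers 3 rose and 1 fell, and the median was 0.53, at −0.0585 in WT and 1.13 in KO livers. Without KO GFP replicate 3, the library with the lowest level of these markers, it was 0.21. Spic (chromosome 10, 88674772 to 88685015), the transcription factor of iron-recycling macrophages, was the clearest, with 11.3, 15.7 and 32.9 normalized reads with GFP and 93.7, 149.8 and 266 with MET/CAT (3.16, SE 0.33, adjusted p = 0.000383). Cd14 rose by 2.93 and the scavenger receptor Marco by 2.33, the latter in 5 of the 12 fits with 1 library left out, while the iron exporter Slc40a1 fell (−1.05, SE 0.18). The Kupffer cell genes Clec4f (0.31), Timd4 (0.28), Vsig4 (0.25) and Adgre1 (0.24) had adjusted p of 0.703 to 0.86. The summed level of the list without Clec4f, its most abundant member, was 4886 to 13668 with GFP and 10048 to 13864 with MET/CAT. None of 20 lymphocyte markers or of 25 endothelial markers was called. The lymphocyte median of −0.075 was −0.56 in WT and 0.50 in KO livers, and ran from −0.24 without KO MET/CAT replicate 3 to 0.12 without WT MET/CAT replicate 1. The endothelial median was 0.34, and −0.0133 in WT livers. It was 0.20 without KO GFP replicate 3. Of 35 stellate cell and matrix genes 2 rose, the protease inhibitor Timp1 (3.12, SE 0.51, adjusted p = 0.00488) and the membrane protease Mmp14 (1.31, SE 0.24). The median of that list was 0.35. Of 12 cholangiocyte and progenitor markers Sox9 alone rose (median 0.48), and erythroid markers had none of 7 called.

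**Figure D3:**
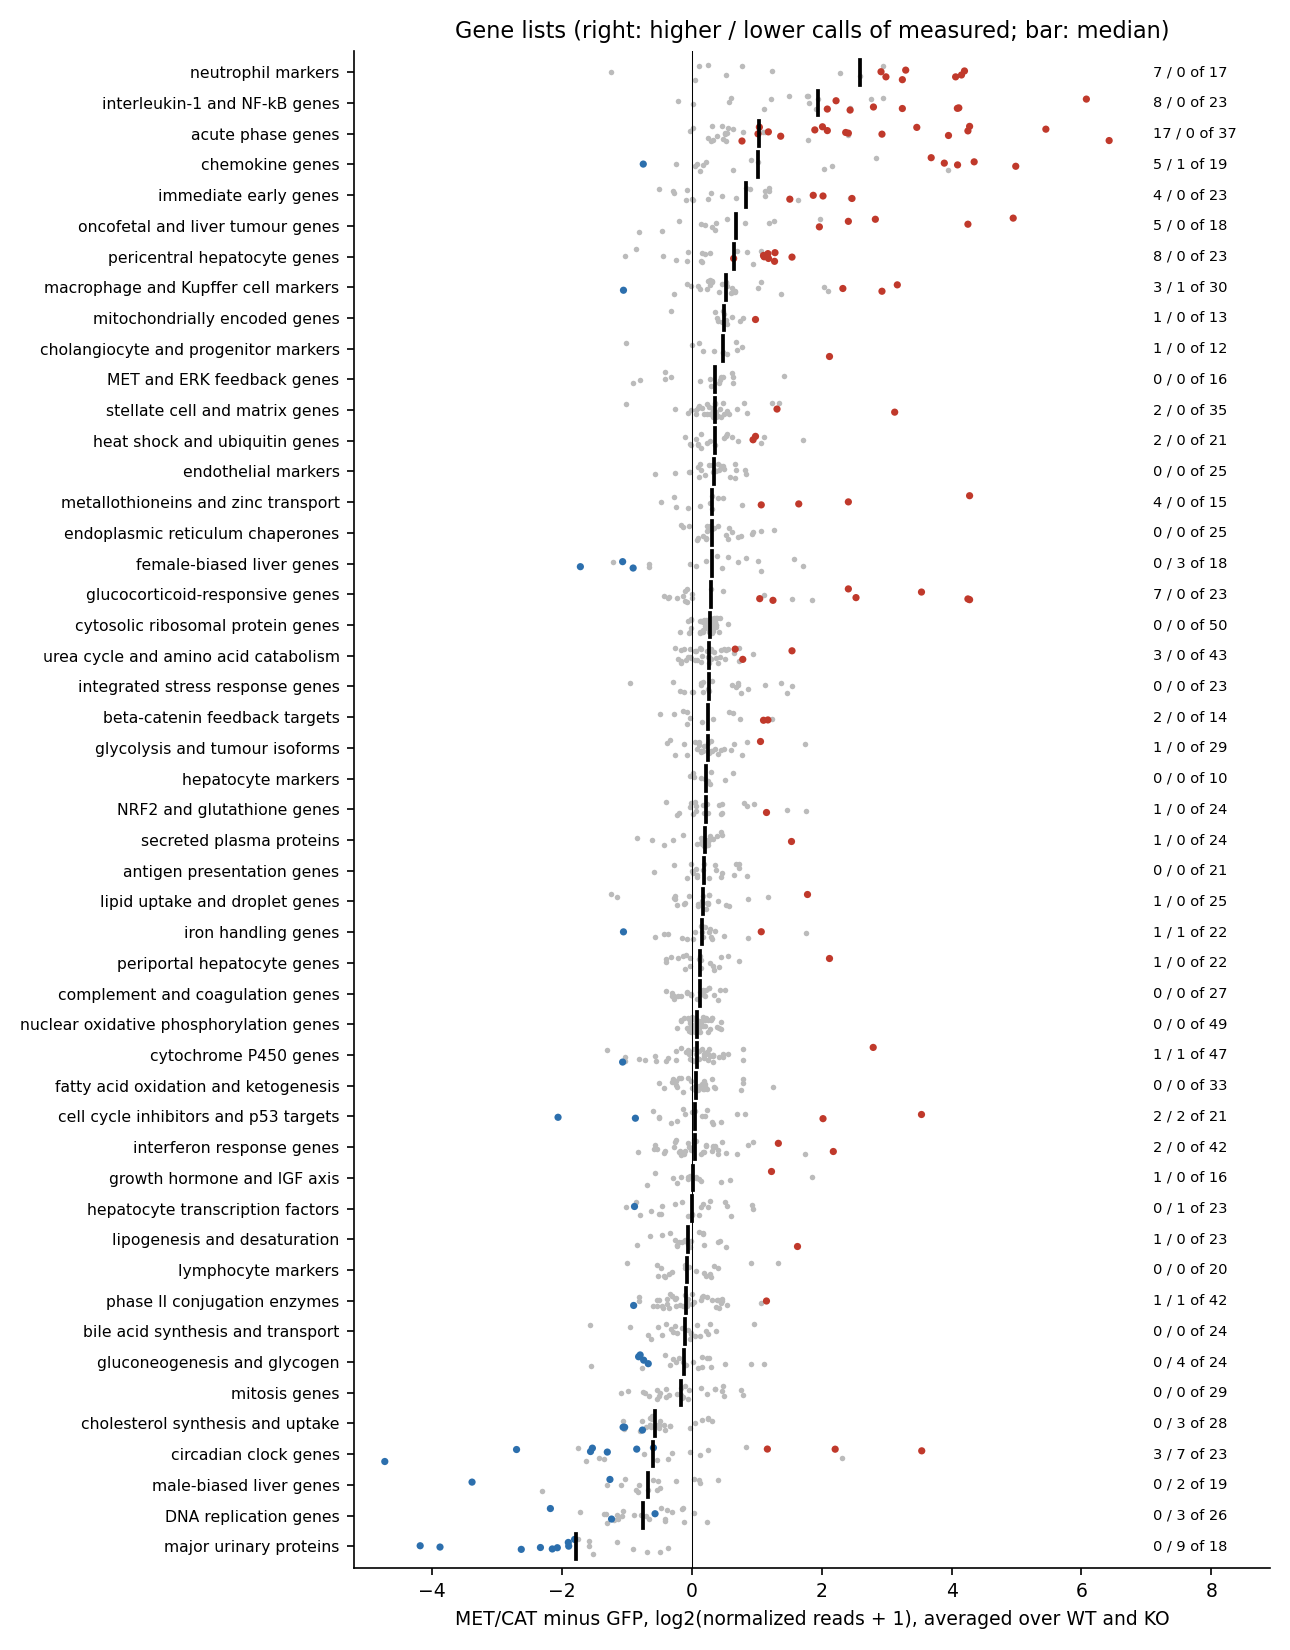
Each row is a gene list with at least 10 measured members, and each point a member at its MET/CAT minus GFP difference, red or blue where called and grey where not, with a bar at the median and the counts of higher and lower calls at the right. Neutrophil, interleukin-1 and NF-kB and acute phase lists lie furthest to the right, at medians of 2.60, 1.94 and 1.04, and major urinary proteins furthest to the left at −1.78.

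Circadian clock genes were called in both directions. The clock is a loop in which ARNTL (BMAL1) with CLOCK or NPAS2 drives the Per, Cry and Nr1d genes and the PAR-domain factors Dbp, Tef and Hlf, whose products then repress ARNTL or act on output genes, opposed by NFIL3. Of 23 measured 3 rose and 7 fell, with a median of −0.59. On the activating side, Arntl (chromosome 7, 113207465 to 113314126) had 2.88, 12.6 and 30.3 normalized reads with GFP and 54.8, 192 and 291 with MET/CAT, with no overlap, and rose by 3.54 (SE 0.52, adjusted p = 0.00297). Clock rose by 1.16 (SE 0.25, called in 9 of the 12 fits with 1 library left out), and Npas2 differed by 2.31 (adjusted p = 0.0574). Nfil3 (chromosome 13, 52967209 to 52981073) rose from 228 ± 28.3 to 1206 ± 618 (SD, n = 6; 2.21, SE 0.31, adjusted p = 0.00248).

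Several targets of ARNTL fell. Dbp (chromosome 7, 45705088 to 45710203) had 2058, 2537 and 2730.4 normalized reads with GFP and 15.7, 72.3 and 649 with MET/CAT. All 6 GFP libraries were above all 6 MET/CAT libraries, and Dbp fell by 4.73 (SE 0.78, adjusted p = 0.00502). Per3 (chromosome 4, 151003652 to 151044665) had 262, 480.4 and 648 with GFP and 24.5, 70.9 and 138 with MET/CAT, also without overlap, and fell by 2.70 (SE 0.33, adjusted p = 0.00119). Tef (−1.56), Nr1d2 (−1.53), Per2 (−1.30), Hlf (−0.59) and Nampt (−0.85) fell as well, Hlf and Nampt in 3 and 4 of the 12 fits with 1 library left out. Nr1d1 (−0.74, adjusted p = 0.578) and Per1 (−0.37, adjusted p = 0.521) were not called, nor were Cry1 (0.83) and Cry2 (−0.54). Dbp had 68.8, 649 and 20.01 normalized reads in WT MET/CAT replicates 1 to 3 and 75.9, 15.7 and 516 in KO MET/CAT replicates 1 to 3, so that WT MET/CAT replicate 2 and KO MET/CAT replicate 3 were the highest of the 6. These 2 were also the lowest MET/CAT libraries for Arntl. Since the hour of collection is unknown here, hour and plasmid cannot be told apart in these genes.

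**Figure D4:**
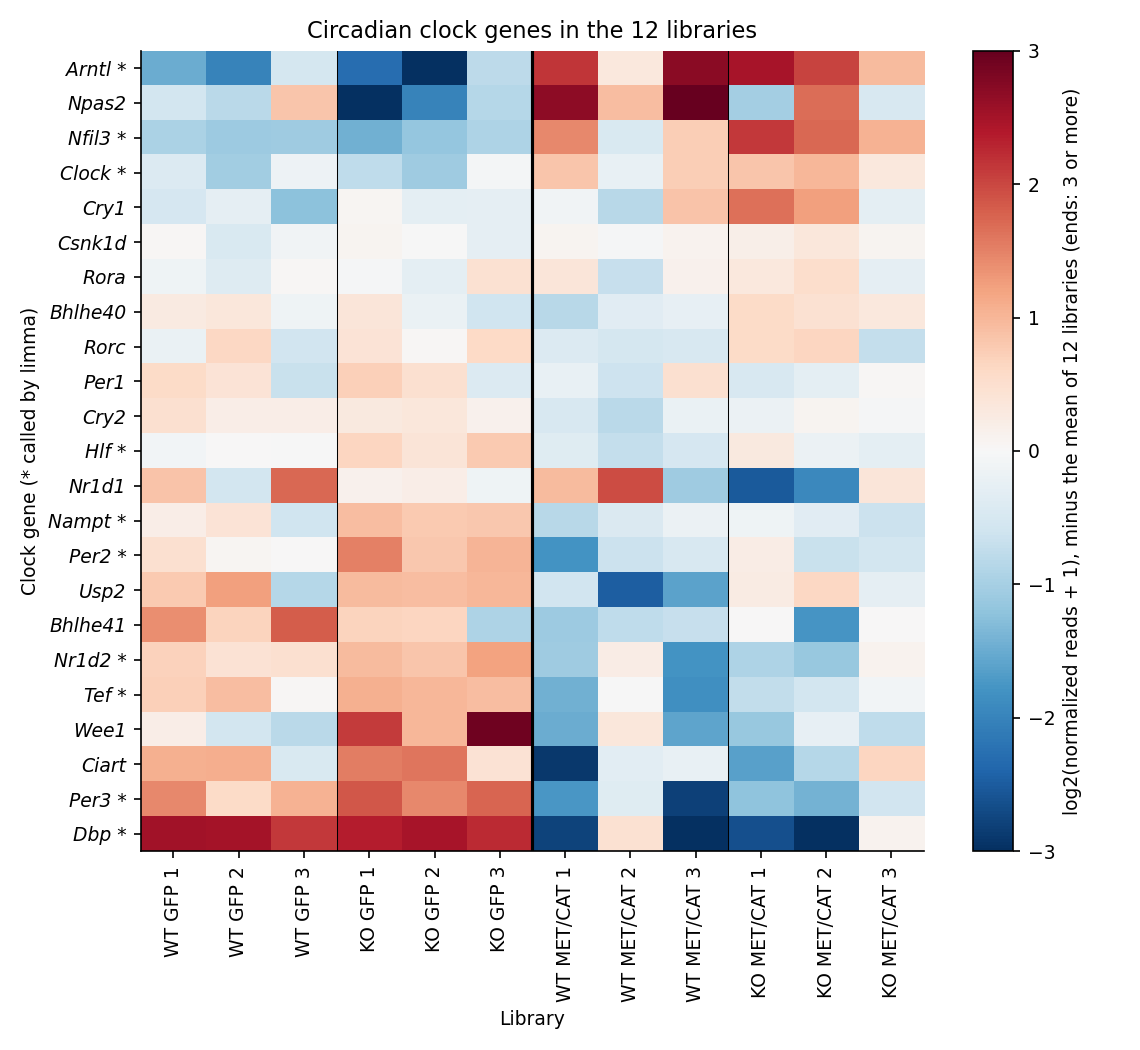
Rows are the 23 measured clock genes, ordered by their MET/CAT minus GFP difference, columns the 12 libraries, and the colour is log2(normalized reads + 1) minus the mean of the 12 libraries, with an asterisk for called genes. Arntl at the top is high and Dbp and Per3 at the bottom are low in the MET/CAT libraries, with WT MET/CAT replicate 2 and KO MET/CAT replicate 3 the palest for Arntl and Dbp.

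The PAR-domain factors DBP, TEF and HLF and their opponent NFIL3 bind the D-box. Promoters (250 bases before to 50 after the start, RefSeq, GRCm38.p6) were therefore searched for TTATGNAA on both strands. Of the 448 called genes 343 had a promoter in the table. The motif was found in 17 of 125 genes that fell (13.6%), in 6 of 218 genes that rose (2.75%) and in 2.79% of the 10521 tested genes with a promoter, and it is present in 3.99% of all 27025 genes with one. Of the 17, 7 were major urinary protein genes, near-copies of each other. Without that family 10 of 118 genes that fell held it (8.47%), against 2.70% of the tested genes. Other motifs were searched in the same windows, with shares given for genes that rose, genes that fell and tested genes. They were 9.17%, 13.6% and 11.4% for the E-box (CACGTG), and 7.34%, 7.2% and 7.33% for the TCF site. The STAT site gave 9.63%, 4.0% and 8.47%, and the interferon-stimulated response element 6.42%, 1.6% and 3.91%. The glucocorticoid response element gave 1.38%, 0.0% and 0.418%. These shares are a description of letters in a window and carry no test.

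The stretches below are shown because these genes fell and hold the motif. Per3 spans chr4:151044806-151044885, 220 to 141 bases before its start on the minus strand, and the others 20 bases on either side of the motif where the window allows. These are Mup19 at chr4:61782399-61782446 (minus strand), Mup2 at chr4:60140032-60140079 (minus strand), Map2k6 at chr11:110478265-110478311 (plus strand), Apol7a at chr15:77399113-77399160 (minus strand) and Slc16a12 at chr19:34747377-34747424 (minus strand). All are written 5′ to 3′ in the direction of the gene, with the matches in capitals.
Per3: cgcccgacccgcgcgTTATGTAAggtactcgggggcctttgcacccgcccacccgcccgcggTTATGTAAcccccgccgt
Mup19: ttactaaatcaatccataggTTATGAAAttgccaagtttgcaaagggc
Mup2: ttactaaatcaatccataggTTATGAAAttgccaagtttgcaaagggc
Map2k6: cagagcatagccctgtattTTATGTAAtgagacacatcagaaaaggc
Apol7a: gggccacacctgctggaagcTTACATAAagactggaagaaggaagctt
Slc16a12: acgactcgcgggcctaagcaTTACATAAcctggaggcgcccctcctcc
Per3 has 2 matches, and the stretches of Mup19 and Mup2 are letter for letter the same. The kinase gene Map2k6 fell by 1.11 (SE 0.17, adjusted p = 0.00373), with 120.4 to 175 normalized reads with GFP and 59.8 to 76.98 with MET/CAT. Apol7a, an apolipoprotein L gene, fell by 1.15 (SE 0.22, adjusted p = 0.011) and the creatine transporter Slc16a12 by 0.81 (SE 0.20, adjusted p = 0.0436), the latter called in 3 of the 12 fits with 1 library left out.

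Major urinary proteins are pheromone carriers that the liver secretes under growth hormone control, and their genes form a cluster of near-copies on chromosome 4. All 18 measured had lower values with MET/CAT and 9 fell, with a median of −1.78. Because near-identical copies share reads, the value of any 1 of these genes is uncertain. Mup19 (chromosome 4, 61778324 to 61782269) had 439, 1360.3 and 1962 normalized reads with GFP and 34.8, 91.6 and 159 with MET/CAT. Its groups did not overlap, and it fell by 3.88 (SE 0.40, adjusted p = 0.000371). Mup15 (−4.18, SE 0.55), Mup18 (−2.63), Mup2 (−1.81), Mup9 (−2.33) and Mup14 (−1.90) fell in all 12 fits with 1 library left out, and Mup1, Mup11 and Mup16 in 7, 4 and 3 of them. Mup3, the most abundant, differed by −0.69 (SE 0.52, adjusted p = 0.561), at −1.54 in WT and 0.17 in KO livers. The family as a whole took 0.942% to 1.40% of reads in 5 GFP libraries, 0.146% in KO GFP replicate 3 and 0.243% to 0.787% in the MET/CAT libraries.

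Other growth hormone and sex-dependent lists held at most 3 calls each, a larger share in each than the 3.23% called over all genes. Of 19 male-biased genes 2 fell and none rose, with a median of −0.67. They were the steroid enzyme Hsd3b5 (−3.38, SE 0.76, adjusted p = 0.0269) and the coenzyme A hydrolase Nudt7 (−1.26, SE 0.27, adjusted p = 0.0223), called in 5 and 7 of the 12 fits. Of 18 female-biased genes 3 fell and none rose, namely Acot3 (−1.72), Abcd2 (−0.90) and Cyp2a4 (−1.07), which 3, 4 and 1 of the 12 fits with 1 library left out called. The list median of 0.31 ran from −0.16 without KO MET/CAT replicate 1 to 0.99 without KO GFP replicate 3. Of 16 genes of the growth hormone and IGF axis, the signal transducer Stat5a alone was called (1.22, SE 0.25, adjusted p = 0.0177). The receptor gene Ghr differed by −0.23 (adjusted p = 0.498), and Igfbp1, which insulin represses, by 1.85 (SE 0.63, adjusted p = 0.141).

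Glucocorticoid-responsive and stress genes rose in part. Of 23 glucocorticoid-responsive genes 7 rose and none fell, with a median of 0.29 (0.50 and 0.11 when WT MET/CAT replicate 2 or 3 was left out, and 0.15 when KO MET/CAT replicate 1 was). Beside the metallothioneins and Lcn2, these were Zbtb16 (2.53, SE 0.44), Fkbp5 (1.25, SE 0.27), Net1 (1.05) and Cdkn1a. Fkbp5 was called in 9 of the 12 fits with 1 library left out. The receptor gene Nr3c1 differed by −0.43 (adjusted p = 0.335). Of 23 immediate early genes 4 rose, with a median of 0.83 (0.53 without KO MET/CAT replicate 1). Btg2 (2.02), Ier5 (1.87), Fosl2 (1.51) and Junb (2.47) were highest in KO MET/CAT replicate 1, at 3597, 1078, 1079 and 8095 normalized reads. Junb was called in 3 of the 12 fits with 1 library left out. Of 16 MET and ERK feedback genes none was called, with a median of 0.36 (0.18 without KO GFP replicate 3 or without KO MET/CAT replicate 1). Dusp5 came at 1.42 (adjusted p = 0.1) and the MET adaptor Gab1 at −0.80 (adjusted p = 0.0507). Of 21 heat shock and ubiquitin genes 2 rose, Hspb8 (0.94, SE 0.13, adjusted p = 0.00217, no overlap) and Hsp90aa1 (0.98, called in 3 of the 12 fits), and none of 25 endoplasmic reticulum chaperones or 23 integrated stress response genes was called.

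No gene of the DNA replication and mitosis lists was called higher, and the list of cell cycle inhibitors and p53 targets had calls in both directions. Of its 21 measured genes 2 rose and 2 fell, a larger share than the 3.23% over all genes. Values were higher in 11 and lower in 10, with a median of 0.049 (−0.041 in WT livers and −0.12 with equal library totals). The 2 that rose were Cdkn1a and Btg2, the latter given above. Cdkn1a (chromosome 17, 29090976 to 29100727), the inhibitor p21, had 57.2, 128 and 326 normalized reads with GFP and 164, 2909.7 and 3759 with MET/CAT. WT MET/CAT replicate 2, the lowest of its group, lay within the GFP range and the other 5 MET/CAT libraries lay above it. Cdkn1a rose by 3.54 (SE 0.64, adjusted p = 0.00796). The proapoptotic gene Bmf fell by 2.06 (SE 0.37, adjusted p = 0.00794) with no overlap, and the p53 target Sesn1 by 0.87, called in 5 of the 12 fits with 1 library left out. Of 26 DNA replication genes 24 had lower values and 3 fell, with a median of −0.74. Mcm10, which helps to start replication forks, had 786, 1733 and 2176 with GFP and 148, 349 and 840.1 with MET/CAT (−2.18, SE 0.35, adjusted p = 0.00486). Gmnn fell by 1.24 and Pcna by 0.57, in 3 and 1 of the 12 fits with 1 library left out. None of 29 mitosis genes was called, and their median of −0.16 was 0.81 in WT and −0.90 in KO livers. It ran from −0.57 without WT GFP replicate 2 to 0.29 without KO MET/CAT replicate 1, so that its sign rests on single libraries. Mki67 differed by 0.76 (SE 0.54, adjusted p = 0.532) and Top2a by −0.16 (SE 0.61, adjusted p = 0.939).

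Among metabolic genes, the cholesterol list exceeded the 3.23% called over all genes, and the bile acid list held no call. Of 28 cholesterol synthesis and uptake genes 23 had lower values and 3 fell, with a median of −0.57. The sterol exporters Abcg5 (−0.76, SE 0.16, adjusted p = 0.0183) and Abcg8 (−1.06, SE 0.24) and the sterol carrier Stard4 (−1.03) fell, and none of the 3 is a synthesis enzyme. With 1 library left out, Abcg5 was called in 11, Abcg8 in 6 and Stard4 in 7 of the 12 fits. Insig2, which holds back cholesterol synthesis, rose from 1151 ± 220.2 to 3697 ± 1191 (SD, n = 6; 1.62, SE 0.24, adjusted p = 0.00297), with no overlap. It was the only call among 23 lipogenesis and desaturation genes. The bile acid enzyme Cyp7a1 differed by −1.56 (SE 0.42, adjusted p = 0.06), at −0.40 in WT and −2.73 in KO livers, and none of 24 bile acid genes was called.

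In glucose metabolism, 4 of 24 gluconeogenesis and glycogen genes fell and none rose, also a larger share than over all genes. The median was −0.12, and −0.24 without WT GFP replicate 2 or −0.072 without WT MET/CAT replicate 2. They were Ugp2 (−0.67, SE 0.14), which makes UDP-glucose, liver glycogen synthase Gys2 (−0.82), the glucose transporter Slc2a2 (−0.80) and the transcription factor Foxo3 (−0.74). With 1 library left out, 11, 3, 2 and 6 of the 12 fits called them, in that order. Pck1 (−0.14, adjusted p = 0.837) and G6pc (−0.77, adjusted p = 0.537) were not called. Ldha, lactate dehydrogenase, rose from 13964 ± 2337 to 29072 ± 6533 (SD, n = 6; 1.05, SE 0.17, adjusted p = 0.00552) and was the single call among 29 glycolysis genes. Its groups did not overlap. Plin5, a coat protein of lipid droplets, rose by 1.77 (SE 0.27) as the single call among 25 lipid uptake and droplet genes. Among 43 urea cycle and amino acid genes Glul, Cbs (0.67) and Acmsd (0.78) rose, Cbs in 10 and Acmsd in 3 of the 12 fits with 1 library left out. Of 47 cytochrome P450 genes the constitutive androstane receptor target Cyp2b10 rose (2.79, SE 0.54; 19.9 to 69.3 with GFP and 149 to 1830 with MET/CAT) and Cyp2a4 fell. Of 42 phase II enzymes the glutathione transferase Gstm3 rose (1.15) and the glucuronosyltransferase Ugt2b35 fell (−0.90). None of 33 fatty acid oxidation genes was called. In the glycolysis, lipid droplet, cytochrome P450 and phase II lists the share called was near the 3.23% over all genes. It was larger in the urea cycle and amino acid list.

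Lists of general cell functions held at most 2 calls each. In those below that held any, the share exceeded the 3.23% called over all genes. None of 49 nuclear oxidative phosphorylation genes was called (median 0.076, and −0.096 without KO GFP replicate 3), nor any of 50 cytosolic ribosomal protein genes (median 0.29, and 0.076 without KO GFP replicate 3). The medians of both lists turned between genotypes, from −0.33 in WT to 0.52 in KO livers for oxidative phosphorylation and from −0.18 to 0.68 for ribosomal proteins. In both lists KO GFP replicate 3 had the lowest and WT GFP replicate 2 the highest mean of all libraries. These were also the extremes of the trend with transcript length, and its part in the turn was not tested. The oxidative phosphorylation median was also −0.089 with equal library totals and −0.0057 with quantile normalization. Of 13 mitochondrially encoded genes 12 had higher values, and mt-Co2 alone was called (0.97, SE 0.21, adjusted p = 0.0211). The list median of 0.50 was 0.92 in WT and 0.089 in KO livers. The differences of mt-Co2 were 1.43 in WT and 0.50 in KO livers. Of 42 interferon response genes 2 rose, Gbp2 (2.18, SE 0.36) and Mx2 (1.33, SE 0.29), with a median of 0.046 that was −0.12 with equal library totals and ran from −0.018 without WT MET/CAT replicate 2 to 0.14 without WT MET/CAT replicate 1. None of 21 antigen presentation genes was called. Among 23 hepatocyte transcription factors the nuclear receptor gene Nr2f2 fell (−0.89, SE 0.17, adjusted p = 0.0107), and Hnf4a differed by 0.52 (adjusted p = 0.123). Of 51 lists in all, 15 had no called member.

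Of the 448 called genes 332 stood in no list, and several of them separated the plasmids as sharply as any listed gene. Nrep (chromosome 18, 33437019 to 33464029), a small regulator of transforming growth factor beta signalling, had 306, 1233 and 1717 normalized reads with GFP and 52.3, 86.5 and 189 with MET/CAT. It fell by 3.47 (SE 0.34, adjusted p = 0.000371), at −3.44 in WT and −3.50 in KO livers. Clpx (chromosome 9, 65294260 to 65330658), the unfolding subunit of the mitochondrial ClpXP protease, had 801, 1015 and 1799.9 with GFP and 2928, 4073 and 5087 with MET/CAT. It rose by 1.88 (SE 0.19, adjusted p = 0.000371). Neither gene overlapped between the plasmids. The ubiquitin ligases Mid1 (2.35, SE 0.25, adjusted p = 0.000389) and Nedd4l (1.68, SE 0.19, adjusted p = 0.000711) rose without overlap too.

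Further genes outside the lists were named by size of change. Hcar2 (chromosome 5, 123863570 to 123865499), the receptor for beta-hydroxybutyrate and niacin, rose by 5.17 (SE 0.84, adjusted p = 0.00488), from 28 to 1079 reads, a ratio of 45.0 (95% interval 31.0 to 68.0). The complement receptor C5ar1 rose by 3.28 (SE 0.55, adjusted p = 0.00552). Among those that fell, the lectin-like receptor Clec2h differed by −3.05 (SE 0.47), the proprotein convertase Pcsk4 by −2.14, the fructose transporter Slc2a5 by −2.07 and Cyp2g1 by −2.04. Rnf152 (−1.92), a lysosomal ubiquitin ligase that restrains mTORC1, and the kinase gene Dclk3 (−1.67) fell as well. Slc2a5 had 94.9 to 199 normalized reads with GFP and 13.3 to 76.98 with MET/CAT, and Rnf152 193 to 475 and 48.9 to 180.5. All of these kept their calls in each of the 12 fits with 1 library left out.

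The WT and the KO contrast share no library, so that each can be read beside the other. Within WT livers alone 49 genes (0.353%) and within KO livers alone 86 genes (0.62%) were called, 9 of them in both, and 349 genes were called only in the average. Of the 49, 41 had the same sign in KO livers and 30 differed there by more than 1 log2 unit in the same direction. Of the 86, 82 had the same sign in WT livers and 59 passed 1 log2 unit. Over all genes the signs matched in 49.9%, and the 2 differences correlated at 0.058 (Spearman) and 0.226 (Pearson). In KO livers 8.12% of all genes were higher and 5.93% lower by more than 1 log2 unit. The same shares in WT livers were not computed. Mt2 (4.35 in WT, 4.20 in KO), Acod1 (6.16, 5.99), Dbp (−4.65, −4.81), Per3 (−2.65, −2.75), Spic (2.99, 3.34) and Glul (1.45, 1.63) had like values in the 2 genotypes. Saa1 (3.45, 7.46), Il1b (2.44, 5.74) and Timp1 (1.77, 4.48) had larger values in KO livers, and Cyp2b10 (3.93, 1.66) and Mup15 (−5.02, −3.34) in WT livers. The test of the difference itself, the interaction of genotype and plasmid, called 0 genes (0.0%) by limma and 0 by edgeR, with 2153 genes at an unadjusted limma p under 0.05 against 693.55 expected by chance. DESeq2 called 169.

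**Figure D5:**
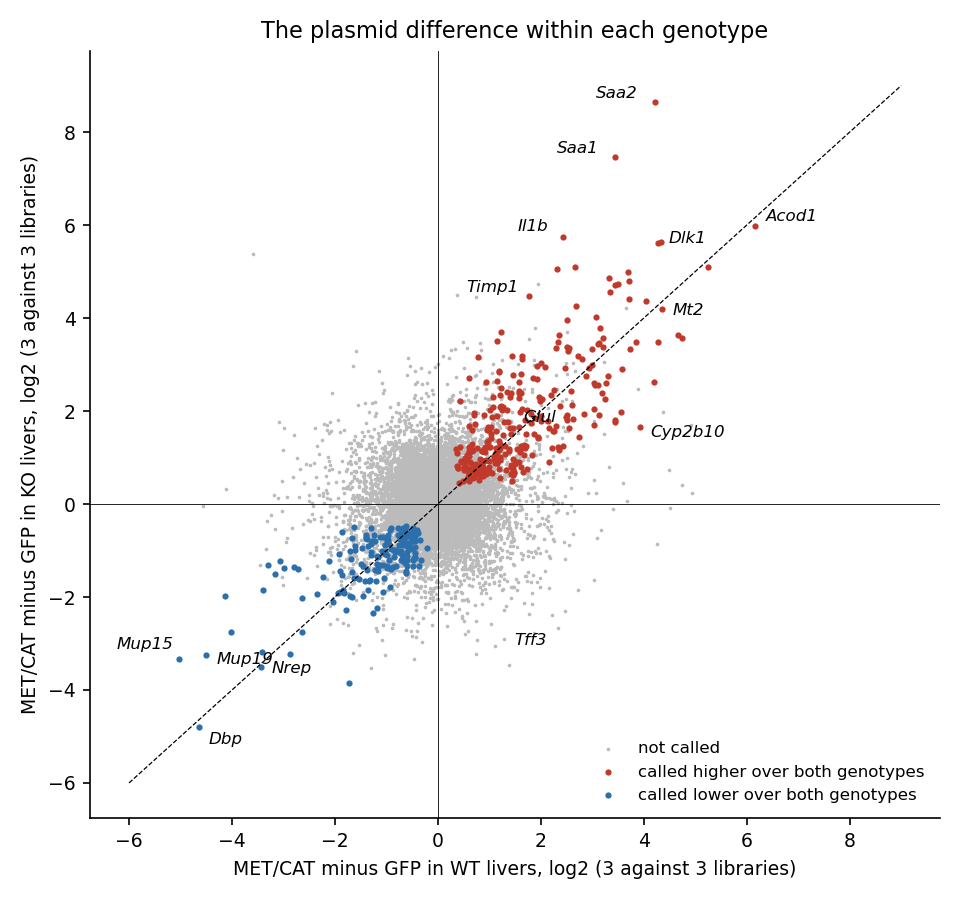
Each point is a gene with its MET/CAT minus GFP difference (log2) in the 3 against 3 WT libraries on the x axis and in the 3 against 3 KO libraries on the y axis, and the dashed line marks equal differences. The genes called over both genotypes, red for higher and blue for lower, lie along the line, with Mt2, Acod1 and Dbp near it, Saa1 and Saa2 above it and Cyp2b10 below it, and the choice of called genes favours those with like signs.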

How the data were processed

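RNA sequencing of whole liver gave 12 libraries. Per the submitters' processing notes reads were aligned with HISAT2 2.0.4 to GRCm38 and counted with HTSeq 0.11.2; the sources used here do not give the annotation, the strand setting or the tool used for normalization. The deposited values are a signal, gene counts that the authors divided by 1 factor per library. Whole reads were recovered for 100% of values. A floor of 3 reads corresponds to 2.26 to 3.61 normalized reads, and intervals cover counting error only. Without a known strand setting, overlapping and antisense genes may share reads.

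Genes that reached 10 in 3 or more libraries were tested on log2(value + 1) with limma 3.58.1 (R 4.3.3), with plasmid and genotype as terms and p-values adjusted over all genes tested at 0.05. Low genes have understated differences on this scale. Recovered reads were also tested with edgeR 4.0.16 and DESeq2 1.42.0. The steps were tested on simulated data. Figures were drawn with matplotlib 3.10.9. Whether sample numbers pair the libraries is not known, so the replicate block is among the alternatives.

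Named genes were Met, Ctnnb1, Glul, Axin2, Lgr5 and Sirt2; up to 15 called genes per direction, ranked by log2 change, whose groups did not overlap and whose higher group averaged 100 or more; the 10 smallest p; and, per list, up to 4 members of smallest p, or every called member if these were at most 5. Predicted genes, pseudogenes, receptor segments and date-like names were left out, and a few genes that the rule names are not reported here. A further 67 genes were chosen after their values were seen. The comparison and the 51 gene lists were chosen with earlier results of these data known.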

Additional observations from a re-analysis of the deposited data

Results flagged for a closer look

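Among 80 tests of whether the highest or lowest of 6 libraries stood apart from the other 5, 4 did, and about 4 are expected by chance. Acod1 had 0.9606 normalized reads in KO GFP replicate 2 and 0 in the other 5 GFP libraries. Socs3 had 98.73 in WT GFP replicate 1, against 30.32 to 44.3 in the others. Nrep had 305.8 in WT GFP replicate 3, against 1071 to 1717. Clpx had 1800 in WT GFP replicate 3, against 801.1 to 1060. All 4 genes kept their call in each fit with 1 library left out.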

How the results depend on the processing

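The count of 448 calls was 982 with DESeq2 and 857 with library quality weights, 49 in WT libraries only and 86 in KO libraries only, and ran from 240 to 536 when 1 library was left out. With the trend of each library with transcript length removed it was 616, 342 higher and 274 lower. The replicate block gave 393 calls, 358 of them shared, and same-numbered libraries correlated between −0.195 and 0.280. The highest were WT GFP with KO GFP, at 0.280 for replicate 2 and 0.264 for replicate 3. Differently numbered libraries reached 0.189. These values do not settle whether the numbers pair the libraries. The interaction gave 169 calls with DESeq2 and 0 to 4 when 1 library was left out. With quantile normalization the list median turned to −0.00640 for periportal hepatocyte genes, −0.0127 for secreted plasma proteins, −0.0688 for complement and coagulation genes and −0.00225 for hepatocyte markers, and the growth hormone axis, fatty acid oxidation and nuclear oxidative phosphorylation medians turned negative too. With equal library totals it turned to −0.0407 for periportal hepatocyte genes, −0.0440 for complement and coagulation genes, −0.00245 for iron handling genes, −0.12 for interferon response genes, −0.15 for the growth hormone and IGF axis, −0.10 for fatty acid oxidation, −0.090 for cytochrome P450 genes, −0.089 for nuclear oxidative phosphorylation and −0.12 for cell cycle inhibitors. In WT libraries only it was −0.0585 for macrophage and Kupffer cell markers, −0.0133 for endothelial markers, −0.33 for nuclear oxidative phosphorylation, −0.18 for cytosolic ribosomal proteins, −0.0087 for antigen presentation and −0.041 for cell cycle inhibitors, and it turned positive for hepatocyte transcription factors, bile acid genes, lipogenesis and mitosis genes. The cause of these changes was not tested. No named gene that was called changed sign in an alternative run, whereas some that were not called did, such as Ctnnb1 (−0.12, and 0.24 in WT libraries only) and Mup3 (−0.69, and 0.17 in KO libraries only). Depth limits genes with few reads, such as Acod1 with GFP.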

Other observations

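The MET/CAT libraries did not vary together, a pattern seen after the values were known and given without a test. WT MET/CAT replicate 2 and KO MET/CAT replicate 3 had the lowest values of the 6 for Afp, Arntl and Cdkn1a and the highest for Dbp. For Arntl, WT MET/CAT replicates 1 to 3 had 199, 54.8 and 291 normalized reads and KO MET/CAT replicates 1 to 3 had 249, 184 and 85.98. For Cdkn1a these were 2467, 164 and 3759 and 3352, 3540.3 and 975. Icam1 did not follow that order, and was highest in WT MET/CAT replicate 2 and KO MET/CAT replicate 1. For the genes that rose, the median difference of 1 MET/CAT library from the GFP libraries of its genotype ran from 1.02 in WT MET/CAT replicate 1 to 1.78 in KO MET/CAT replicate 1, and for those that fell from −0.79 to −1.23.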
